A study of Mus musculus with 10 samples.

Results

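The St3gal1 window is a 180 kb stretch of mouse chromosome 15, from 66860000 to 67040000 of the mm9 build, that holds one of the largest clusters of STAT5A peaks in mammary tissue at parturition. Its members are all peaks that overlap these positions in 3 deposited lists: 6 of 2578 peaks for STAT5B in Stat5a-null tissue, 18 of 26237 for STAT5A in wild type tissue and 14 of 6976 for STAT5B in wild type tissue, together 38 of 35791. Overlapping peaks merged into 20 sites, numbered here 1 to 20 along the chromosome. The window was chosen by the positions of the wild type STAT5A peaks, which crowd there, so the number and crowding of these peaks describe the choice and are not findings.

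Each list comes from 1 chromatin immunoprecipitation and sequencing (ChIP-seq) library of mammary tissue taken on the day of parturition. The mice were Stat5a-null, written BB in the labels, or wild type, written AABB, and both were of the strain 129SV::FVB/N::C57BL/6. The same antibody (Santa Cruz, sc-835) was used for STAT5B in both genotypes, and another (sc-1081) for STAT5A. Since every group is 1 library, no difference between them could be checked on replicates or tested. The labels do not say how many animals went into a library. The tissue is whole mammary tissue, and peak lists offer no check of its cell types. Where a peak is missing from a list, less STAT5 bound per cell, fewer cells with bound STAT5 and shallower sequencing cannot be told apart. Cross-reaction of the antibodies was not tested, and the input, H3K4me3, RNA polymerase II and Stat5a-null STAT5A libraries were not analysed here.

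STAT5A and STAT5B are transcription factors of nearly the same sequence. Prolactin, acting through its receptor and the kinase JAK2, has them phosphorylated, after which they form dimers, enter the nucleus and bind DNA near genes of milk production. St3gal1 encodes a Golgi enzyme that adds sialic acid to the galactose of O-linked sugar chains on mucins and other glycoproteins, which caps the chain. In the RefSeq gene table for another build (GRCm38.p6) its nearest protein-coding neighbours on the chromosome are Ndrg1 on the lower side and Zfat on the higher side. Between Ndrg1 and St3gal1 that table lists the genes Gm2895, Gm31286 and Gm31342. Coordinates of that build were not mixed with mm9. The position of St3gal1 was therefore not checked against the window, no peak was assigned to a promoter, exon or intron, and the gene name serves only to label the window. The DNA under the peaks was not read for the same reason.

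The values below are the authors' score per peak, a height whose scale is not stated and which is compared only within its own list. In each list the scores were multiples of 1 step, as tag counts times 1 factor would be, and dividing by that step gave an inferred number of tags (sequenced fragment ends). Exact Poisson and binomial 95% intervals on tags and shares cover counting error only, and total reads per library are unknown. The weakest peak of a list held 39 inferred tags for Stat5a-null STAT5B, 64 for STAT5A and 39 for wild type STAT5B. Smaller steps also fit and would multiply tags by 1.10 in Stat5a-null and 1.39 in wild type STAT5B. The equal 39 therefore does not show a shared threshold. A site without a peak is thus one where the authors' threshold was not reached, not one shown to be free of the factor.

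**Figure D1:**
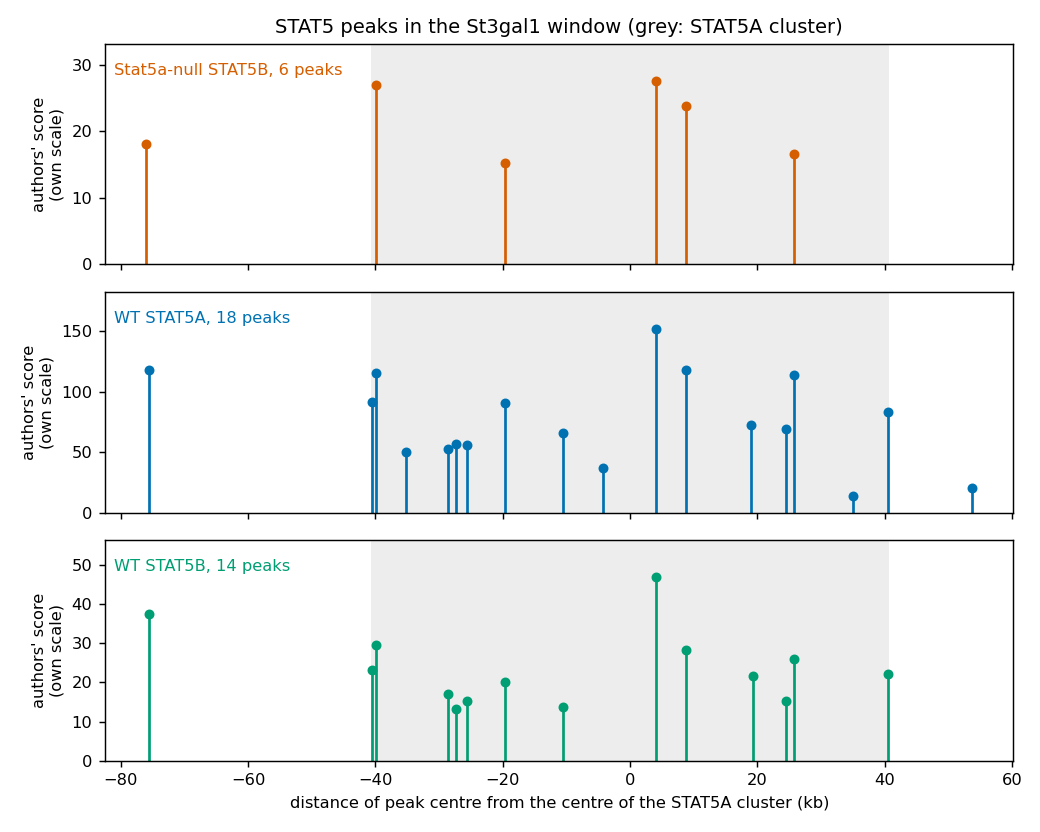
Authors' score of each peak (vertical axis, own scale in each panel) against the distance of its centre from the centre of the STAT5A cluster in kb (horizontal axis), for STAT5B in Stat5a-null tissue, STAT5A in wild type tissue and STAT5B in wild type tissue. The grey band is the 81.5 kb cluster, which holds 5 Stat5a-null STAT5B, 16 STAT5A and 13 wild type STAT5B peaks, and the highest peak of each list lies about 4.1 kb from its centre.

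Of the 20 sites, 5 carried a peak in all 3 lists. In the STAT5A list they ranked between 1 and 7 of the 18 peaks of the window, and in the wild type STAT5B list between 1 and 9 of the 14. Site 12 led every list. It had a score of 27.6 for Stat5a-null STAT5B (positions 66956578 to 66956835), 151.7 for STAT5A (66956592 to 66956867) and 46.8 for wild type STAT5B (66956590 to 66956841). These scores put it at rank 362 of 2578, rank 353 of 26237 and rank 185 of 6976 in those lists.

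Site 13, from 66961231 to 66961506, had a score of 23.8 for Stat5a-null STAT5B, 117.7 for STAT5A and 28.2 for wild type STAT5B. Site 4, from 66912584 to 66912879 near the low end of the cluster, had 26.9, 115.2 and 29.6 in the same order of lists. Site 17, from 66978281 to 66978584, had 16.6 for Stat5a-null STAT5B, 113.4 for STAT5A and 26.0 for wild type STAT5B. The STAT5A scores of sites 4, 13 and 17 lay within each other's counting intervals, at 671, 685 and 660 inferred tags.

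Site 9, from 66932802 to 66933098, was the lowest of the 5 in every list. Its score was 15.2 for Stat5a-null STAT5B, 90.2 for STAT5A and 20.1 for wild type STAT5B. It was also the lowest wild type STAT5B peak of the window that had a Stat5a-null peak. At these 5 sites the centres of the Stat5a-null and wild type STAT5B peaks lay between 7 and 31 bp apart, with a median of 12 bp. Between Stat5a-null STAT5B and STAT5A the distance was 1 to 23 bp, with a median of 15 bp.

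Scores cannot be set against each other across lists, but the way the tags of a list divide among these 5 sites can. In Stat5a-null tissue the 5 sites held 523 inferred STAT5B tags, against 3424 STAT5A tags and 631 STAT5B tags in wild type tissue. Site 12 took 25.05% (exact 95% interval 21.4% to 29.0%) of the 5-site sum for STAT5B in Stat5a-null tissue and 31.1% (27.5% to 34.8%) in wild type tissue, with 25.8% (24.3% to 27.3%) for STAT5A. Site 4 took 24.5% (20.8% to 28.4%) in Stat5a-null tissue and 19.7% (16.6% to 23.0%) in wild type tissue. The intervals of the genotypes met at all 5 sites, which is no test of a difference, and none was made with 1 library per genotype. Sites 12, 4, 13, 17 and 9 came in this order of height in both STAT5B lists. In Stat5a-null tissue sites 12 and 4 could not be ordered, with 131 (110 to 155) and 128 (107 to 152) inferred tags. In wild type tissue site 12, with 196 (170 to 225) tags, stood above site 4, with 124 (103 to 148), by more than the counting error. Whether this gap in height of the 2 sites differs between the genotypes was not tested.

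**Figure D2:**
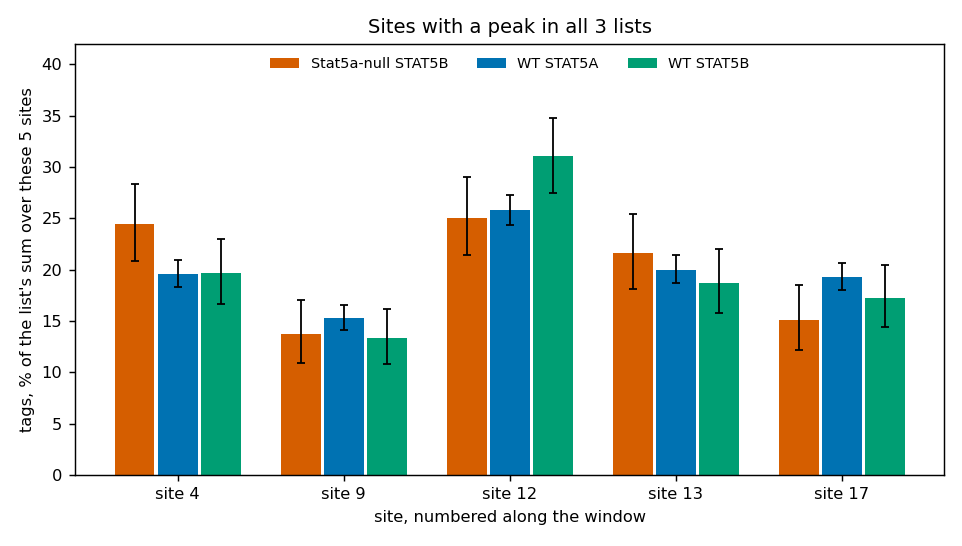
Inferred tags at a site as a percent of the tags of the same list summed over the 5 sites (vertical axis), at each of the 5 sites that carried a peak in all 3 lists (horizontal axis, sites numbered along the window), for STAT5B in Stat5a-null tissue, STAT5A in wild type tissue and STAT5B in wild type tissue. Bars are single libraries and error bars are exact binomial 95% intervals. Site 12 has the tallest bar in each list, from 25.05% to 31.1%, and site 9 the lowest, from 13.3% to 15.3%.

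A further 8 sites had STAT5A and STAT5B peaks in wild type tissue and no overlapping peak in Stat5a-null tissue. The strongest was site 2, from 66876886 to 66877178, which lies outside the cluster. Its score was 117.7 for STAT5A and 37.5 for wild type STAT5B, rank 481 of 6976 and the highest wild type STAT5B peak of the window without an overlapping Stat5a-null peak. A Stat5a-null STAT5B peak did lie beside it. This was site 1, from 66876508 to 66876765, with a score of 18.1, 120 bp from the wild type STAT5B peak and 137 bp from the STAT5A peak. Site 1 was the only Stat5a-null peak of the window that overlapped no wild type peak. Of the 26339 merged sites of the series, 14 were of this kind.

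The other 7 of these 8 sites lay in the cluster. Site 3 (66911887 to 66912162) had 91.7 for STAT5A and 23.2 for wild type STAT5B, and site 19 at the high end of the cluster (66993094 to 66993369) had 83.0 and 22.0. Site 3 lay 421 bp from site 4, which had a Stat5a-null peak. The remaining sites 6, 7, 8, 10 and 16 were lower, with STAT5A scores of 52.6, 56.7, 55.6, 65.6 and 68.9 and wild type STAT5B scores of 17.0, 13.1, 15.3, 13.6 and 15.3. All 5 of these wild type STAT5B peaks were below the median of their list. Sites 6, 7 and 8 lay close together, from 66923846 to 66927174.

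One wild type STAT5B peak overlapped no STAT5A peak. Site 15, from 66971909 to 66972160, had a score of 21.5, rank 2276 of 6976. The STAT5A peak of site 14, from 66971553 to 66971828 with a score of 72.7, ended 80 bp before it, and the peak centres were 344 bp apart. Where both factors were called on overlapping positions in the window, centres lay 3 to 40 bp apart.

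STAT5A alone was called at 5 sites, site 14 among them. Site 5 (66917298 to 66917573) had a score of 50.3 and site 11 (66948203 to 66948478) one of 36.9. The weakest STAT5A peak of the window was site 18, from 66987560 to 66987835, with a score of 13.7 and rank 24275 of 26237. Site 20, from 67006246 to 67006521 and outside the cluster, scored 20.6. Inferred tags at sites 18 and 20 were 80 (63 to 100) and 120 (99 to 143), against 883 (826 to 943) at site 12.

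Within the window, STAT5A scores spanned 11.1-fold, from 13.7 to 151.7 with a median of 70.8. Wild type STAT5B scores spanned 3.57-fold, from 13.1 to 46.8 with a median of 21.75, and the 6 Stat5a-null STAT5B scores 1.82-fold, from 15.2 to 27.6 with a median of 20.95. These spans depend on where each list ends and on its background, so they do not compare the factors. In the order of STAT5A scores, site 12 stood above all others by more than the counting error. The next 4 peaks, at sites 2, 13, 4 and 17, could not be ordered among themselves but stood above the rest, and sites 11, 20 and 18 stood below the rest. Of 17 neighbouring pairs in that order, 4 had separate intervals. Among the 13 neighbouring pairs of wild type STAT5B peaks and the 5 pairs of Stat5a-null peaks, 0 did.

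Most STAT5A peaks of the window lay in the upper part of their own list. The STAT5B peaks of both genotypes were closer to the even split that a whole list has by definition. The median score percentile within the own list was 67.9 for Stat5a-null STAT5B, 86.1 for STAT5A and 67.4 for wild type STAT5B. In the upper 50% of their list lay 4 of 6, 16 of 18 and 9 of 14 peaks. The highest-scoring 10% held 0 of 6, 7 of 18 and 2 of 14. Percentiles in lists of such different length do not compare the factors or genotypes. At the 13 sites where STAT5A and wild type STAT5B peaks overlapped, the heights followed each other (Spearman rho 0.91), as they did over the 6888 overlapping pairs of the series (rho 0.90). These points share their 2 libraries and the underlying chromatin, and the relation is a description.

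**Figure D3:**
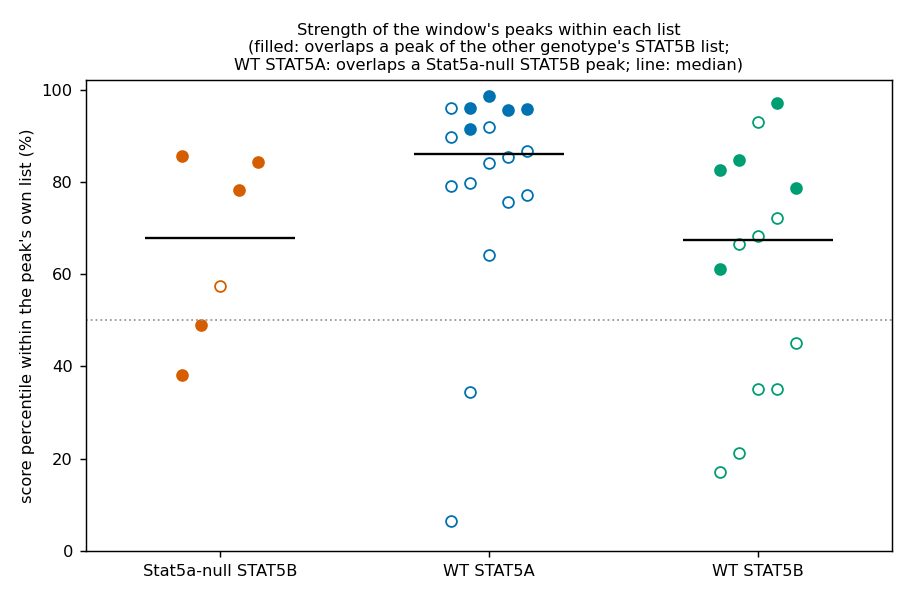
Score percentile of each peak of the window within its own list (vertical axis, %), by list. Filled points overlap a peak of the STAT5B list of the other genotype (for STAT5A, a Stat5a-null STAT5B peak), lines are medians (67.9, 86.1 and 67.4 from left to right) and the dotted line marks 50%. The filled STAT5A points lie between 91.5 and 98.6, and the filled wild type STAT5B points lie between 61.1 and 97.2.

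Peaks with a Stat5a-null partner were mostly the taller ones. The 5 STAT5A peaks that overlapped a Stat5a-null STAT5B peak had scores of 90.2 to 151.7 with a median of 115.2, against 13.7 to 117.7 with a median of 56.7 for the 13 others. The 5 wild type STAT5B peaks with such a partner ranged from 20.1 to 46.8 with a median of 28.2, and the 9 without from 13.1 to 37.5 with a median of 17.0. The groups overlapped in both lists. In the wild type STAT5B list site 9, at 20.1 with a partner, lay below sites 2, 3, 15 and 19, at 37.5, 23.2, 21.5 and 22.0 without one. Site 2 also lay above sites 4, 13 and 17, at 29.6, 28.2 and 26.0 with a partner.

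The share of the window's wild type STAT5B peaks found in Stat5a-null tissue was close to that of the whole list. It was 5 of 14, or 35.7% (exact 95% interval 12.8% to 64.9%), beside 34.8% of all wild type STAT5B peaks. Since taller peaks are found more often in the shorter list, each peak was also set against the share in its own score decile over the rest of the list, which ran from 90.9% in the highest decile to 3.30% in the lowest. Summed over the 14 peaks this gave 6.36, against the 5 observed. With gaps of up to 500 bp counted as overlap, 7 of the 14 had a partner, and no decile sum is given for that setting. At 1 bp of overlap site 2, in the decile with 90.9%, was the highest of the peaks without a partner. In the other direction 5 of 6 Stat5a-null peaks overlapped a wild type STAT5B peak, 83.3% (35.9% to 99.6%), beside 94.1% of the list. The exception was site 1.

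STAT5A peaks of the window had STAT5B partners in a higher share than the whole STAT5A list, and in numbers close to the sums for STAT5A peaks of the same score deciles. A partner in the Stat5a-null list was present at 5 of the 18, or 27.8% (9.69% to 53.5%), beside 9.67% of all STAT5A peaks, and the decile shares summed to 5.83. With lists cut to their 2578 highest peaks the share was 5 of 7, or 71.4%. The share over the whole cut STAT5A list is not given here. The 71.4% thus has no background and is not to be set beside 9.67%. An overlapping wild type STAT5B peak was present at 13 of 18, or 72.2% (46.5% to 90.3%), beside 26.3% of the list, and the decile shares summed to 12.88. Conversely, a STAT5A peak was present at 5 of 6 Stat5a-null STAT5B peaks and at 13 of 14 wild type ones, 83.3% (35.9% to 99.6%) beside 98.4% of that list and 92.9% (66.1% to 99.8%) beside 98.7%. By class, 5 of the 20 sites were in all 3 lists, 8 in both wild type lists alone and 5 in the STAT5A list alone. Over the 26339 sites of the series these classes made up 9.12%, 17.0% and 72.9%. These series shares are not matched for score, and most STAT5A peaks of the window lay high in their list. The classes thus add nothing to the decile sums above.

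The cluster was formed by joining STAT5A peaks across gaps of at most 12500 bp, with 5 or more peaks required. Its 16 peaks ran from 66911887 to 66993369. The widest gap inside it was 10.0 kb, between sites 13 and 14, and the median gap was 5.26 kb. Between neighbouring STAT5A peaks of the whole list the median gap was 23.5 kb. Gaps over 12500 bp end a cluster, so a smaller median inside it was fixed by the joining and is not a finding. Site 20 lay just beyond the limit, 12.9 kb past the last peak, and the STAT5A peak of site 2 lay 34.7 kb before the first. Outside the window, the next STAT5A peaks were weak ones 56.9 kb before site 2 (score 13.4) and 73.9 kb after site 20 (score 13.9). The run was not evenly filled: 4 of its 15 gaps were under 2000 bp (sites 3 and 4, 6 and 7, 7 and 8, and 16 and 17), and 9 were over 5000 bp.

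Joined in the same way, the STAT5B peaks formed shorter runs, in shorter lists. With every list cut to its 2578 highest peaks, the longest STAT5A run at the cluster also held 2 peaks, so the lengths of runs do not compare the factors. In Stat5a-null tissue the longest run of the window was the pair of sites 12 and 13, and no cluster of 5 or more was found anywhere in that list. In wild type tissue the longest run held 7 STAT5B peaks over 30.4 kb, from site 3 to site 10. It was among the 21 STAT5B clusters of that list, of which 2 were larger. The wild type STAT5B peaks of sites 12, 13, 15, 16 and 17 formed a further run of 5.

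Among the 434 STAT5A clusters of the series this one was the widest, at 81.5 kb against a median of 25.4 kb, and shared the highest number of peaks with a cluster on chromosome 11. The window was chosen as a largest cluster, and width goes with the number of peaks, so neither rank is a finding. The cluster was not dense: its 1.96 peaks per 10 kb compare with a median of 2.24, and 295 clusters were denser. The median score percentile of its STAT5A peaks, 86.1, was exceeded in 47 clusters, and the median over clusters was 59.4. It held 5 Stat5a-null STAT5B peaks, as did 2 other clusters, and none held more. Its 13 wild type STAT5B peaks were the most in any cluster, the next holding 9. A cluster with more and taller STAT5A peaks has more places for a partner, so these counts were again set beside the sums of decile shares.

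**Figure D4:**
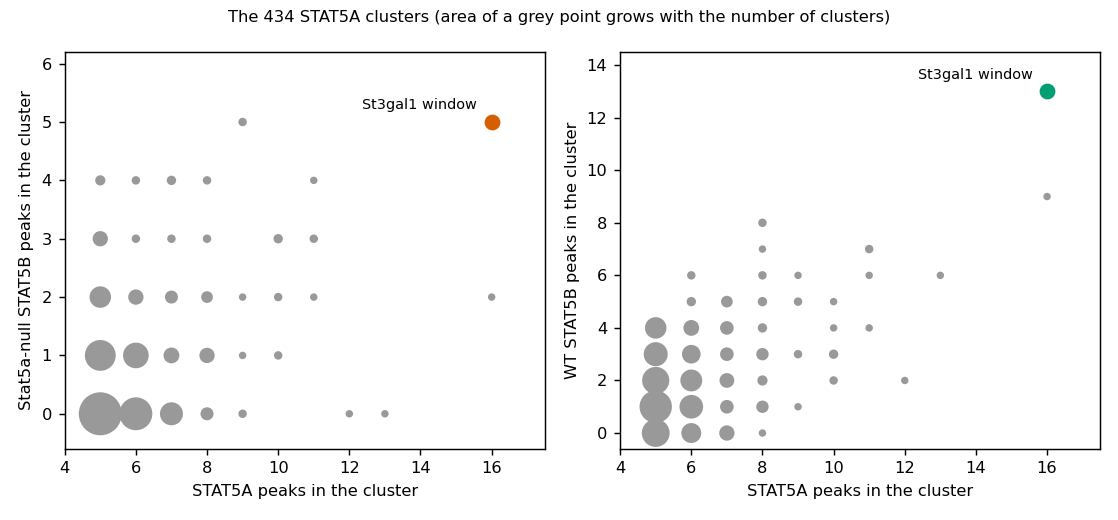
Number of Stat5a-null STAT5B peaks (left) and wild type STAT5B peaks (right) in each STAT5A cluster of the series, against its number of STAT5A peaks. Grey points grow with the number of clusters at that position and the coloured point is the cluster of the St3gal1 window, at 16 STAT5A peaks with 5 Stat5a-null and 13 wild type STAT5B peaks.

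For the cluster of the St3gal1 window, 5 of the 13 wild type STAT5B peaks had a Stat5a-null partner, beside a sum of 5.45, and 12 of 16 STAT5A peaks had a wild type STAT5B partner, beside 11.9. The chromosome 11 cluster, from 117819490 to 117877051, had a Stat5a-null partner at 2 of 9 wild type STAT5B peaks, beside 3.02. The chromosome 13 cluster, from 103636594 to 103696332, had one at 0 of 6 (exact 95% interval 0% to 45.9%), beside 1.83. Its STAT5A peaks were lower, with a median percentile of 69.0, against 81.9 on chromosome 11. Over all 434 clusters, 353 of 894 wild type STAT5B peaks had a Stat5a-null partner and the decile shares summed to 363.6. With 1 library per group no test between clusters was made.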

How the data were processed

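Peak lists of 3 ChIP-seq libraries, 1 per group by the sample titles, were analysed, and the series' other 7 samples were not analysed here. Per the submitters' processing notes, CASAVA, BWA and HOMER were used, with mm9 as the genome build. Neither their versions nor the control and thresholds of the peak calls are given in the sources used here. The deposited files give 1 signal value per peak (the score), on a scale the authors' files do not state. Peaks are 258 bp wide for Stat5a-null STAT5B, 276 bp for STAT5A and 252 bp for wild type STAT5B.

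Starts were read as 0-based and are printed 1-based. Peaks were counted as partners from 1 bp of overlap on. A percentile is the percent of the other peaks of the list with a lower score. Tags came from the largest step of which every score was a multiple within 0.05: 0.210, 0.172 and 0.239 for Stat5a-null STAT5B, STAT5A and wild type STAT5B. The next smaller steps would multiply tags by 1.10 in Stat5a-null and 1.39 in wild type STAT5B and leave shares of tags as they are up to rounding.

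The window, its members and the settings were chosen with earlier results of these data known. The rule for named peaks took sites with a Stat5a-null peak, wild type STAT5B without STAT5A, and the highest STAT5A peaks and the lowest. It also took the highest wild type STAT5B peak without a Stat5a-null peak and the lowest with one. The first peak outside each end of the cluster was included. The remaining sites of the window were named beyond this rule. Shares of tags were added after the data were seen. Positions relative to genes, a list of sialylation genes and the STAT motif were planned but not run, because the gene table is of GRCm38.p6. On simulated data all 300 planted shared peaks and all 20 planted clusters were found, and bedtools 2.31.1 gave the same 6 of 6 overlap counts. The software was Python 3.11.15, pandas 2.3.3, numpy 2.4.6, matplotlib 3.10.9 and scipy 1.17.1.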

Additional observations from a re-analysis of the deposited data

How the results depend on the processing

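Of 52 alternatives of 12 values, 41 stayed within the exact interval of the share or within 1.5 times the count, and 11 did not. Allowing gaps of up to 500 bp gave a partner to 100% of the window's Stat5a-null STAT5B peaks in both wild type lists. It did so for 100% of its wild type STAT5B peaks in the STAT5A list, because sites 1 and 15 lie beside their partners. Over the whole lists, overlap of 1 bp already gave 94.1% of Stat5a-null peaks a wild type STAT5B partner and 98.4% a STAT5A partner. For wild type STAT5B peaks with a STAT5A partner it gave 98.7%. Whole-list shares with gaps allowed are not given here. Restricting the window to the cluster, which leaves out site 1, also gave 100% for the overlap of Stat5a-null peaks with either wild type list. Cutting lists to their 2578 highest peaks left 7 STAT5A and 8 wild type STAT5B peaks in the window, and a run of 2 STAT5A peaks. Of these STAT5A peaks 71.4% had a Stat5a-null peak, a value without a whole-list share under the same cut. The higher-scoring 50% of the wild type STAT5B list left 9 peaks. With gaps of 5 kb the largest STAT5A run held 3 peaks. The cluster thus depends on the gap and on how far down the list was called. The motif alternatives were not run. Groups of 1 library allow no replicate to be left out. How deeply each library was sequenced, which limits the calling of weak sites, is unknown. No paired analysis was possible because each group holds 1 library.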
